A study of Mus musculus with 27 samples.

Results

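The AP-1 and immediate early genes described here were 10 of the 50559 genes in the count table of irradiated mouse thyroid gland organoids (mTGOs): Fos, Fosb, Fosl1, Fosl2, Jun, Junb, Jund, Egr1, Atf3 and Ier2. Fos and Fosb were chosen by their counts, which had been seen to be lower at 7 Gy than at 0 Gy, and the other 8 members were added to ask whether they followed. The values of Fos and Fosb in the 0 and 7 Gy libraries therefore chose them and are given as a description without a test, whereas the other 8 members were tested in every comparison. All 10 had enough counts to be fitted, from 1265 counts over the 27 libraries for Fosl1 to 32308 for Jun.

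Thyroid cells of C57BL/6 mice aged 8 to 12 weeks were grown as organoids in Matrigel, in a medium with EGF, FGF2, Y27632 and the B27 supplement, and were irradiated with photons on day 5. Polyadenylated RNA was sequenced from its 3′ ends (Smart3SEQ) in 9 groups of 3 libraries, namely 5-day-old organoids at 0 Gy and 7- and 11-day-old organoids at 0, 2, 4 and 7 Gy, so that 2 or 6 days had passed since the dose. Each group held the cultures mTG11, mTG12 and mTG14, which are always given here in that order; the labels number 3 mice, whereas the text on the design speaks of 4, so that the animal behind each culture is uncertain. All groups, the 0 Gy controls included, shared the strain, the matrix and the growth factors, and the design separates the dose at each age. In irradiated organoids, age and time since the dose rose together and cannot be told apart.

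AP-1 is a dimer of basic leucine zipper proteins. Usually a JUN family member (Jun, Junb, Jund) pairs with a FOS family member (Fos, Fosb, Fosl1, Fosl2) or with a member of the ATF family such as Atf3. Dimers of FOS and JUN proteins bind a 7-base site of the form TGANTCA in which N is C or G. Fos, Fosb, Egr1, a zinc finger transcription factor, and Ier2, a nuclear protein, are among the immediate early genes. Such genes are transcribed within minutes of growth factor or stress signalling through ERK and the other MAP kinases without new protein synthesis. Jun, Junb and Atf3 are often counted among them as well, so the members that fell with dose are not the whole class. Fosl1 and Fosl2, which lack the strong transactivation domain of Fos, are usually induced later and for longer, Jund is expressed at a steady level in many cells, Junb often restrains Jun, and Atf3 is a stress-induced factor.

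Fos, Fosb and Junb are shown by their promoters because Fos and Fosb had the largest differences with dose and Junb the smallest spread over the libraries of the 10 members. The 250 bases before each transcription start are from RefSeq (GRCm38.p6) and are printed from 5′ to 3′ in the direction of transcription, with each TGACG, the 5-base core of the cAMP response element to which CREB and ATF proteins bind, in capitals. They lie at chr12:85473640-85473889 on the plus strand, chr7:19310046-19310295 on the minus strand and chr8:84978749-84978998 on the minus strand.
Fos: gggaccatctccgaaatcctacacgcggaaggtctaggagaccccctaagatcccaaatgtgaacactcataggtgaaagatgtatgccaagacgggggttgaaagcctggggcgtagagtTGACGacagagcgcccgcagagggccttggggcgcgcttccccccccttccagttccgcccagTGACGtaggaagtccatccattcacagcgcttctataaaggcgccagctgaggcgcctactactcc
Fosb: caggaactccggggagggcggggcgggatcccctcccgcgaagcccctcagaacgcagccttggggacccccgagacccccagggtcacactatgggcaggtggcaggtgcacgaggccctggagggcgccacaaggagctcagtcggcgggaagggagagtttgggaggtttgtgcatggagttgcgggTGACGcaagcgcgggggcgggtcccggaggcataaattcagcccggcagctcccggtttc
Junb: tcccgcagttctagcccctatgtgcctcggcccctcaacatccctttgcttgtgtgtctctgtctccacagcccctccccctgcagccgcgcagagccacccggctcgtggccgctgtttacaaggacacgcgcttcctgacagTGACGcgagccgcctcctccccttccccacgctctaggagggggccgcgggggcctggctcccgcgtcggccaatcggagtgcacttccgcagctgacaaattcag
RefSeq promoters were matched for 7 of the 10 members, which excludes Egr1, Ier2 and Fosl1. TGACG was found on either strand in 4 of the 7 (Fos, Fosb, Junb and Atf3) and in 17.8% of all 32851 promoters of the same length. The core lay 129 and 66 bases before the start of Fos, 60 before that of Fosb, 106 before that of Junb and, on the opposite strand, 7 before that of Atf3. The full element TGACGTCA, which contains TGACG and was present in 1.55% of all promoters, was found in none of the 7 windows. None of the 7 held the looser AP-1 pattern TGANTCA with any base at N (6.75%) or the CArG box bound by serum response factor (1.47%). The EGR site GCGNGGGCG (4.7%) was present in Fosb and Fosl2. These matches describe letters in a window of 250 bases and say nothing of binding or of sites further upstream. The core was present in Fos and Fosb as well as in Junb.

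In GRCm39 Junb, Jund and Ier2 lie on chromosome 8 and the others on a chromosome each. Fos occupies 12:85520658-85524047 on the plus strand, Fosb 7:19036621-19043976 on the minus strand, Egr1 18:34992876-34998049 on the plus strand, Ier2 8:85387960-85389483 on the minus strand and Fosl1 19:5497575-5505974 on the plus strand. Of the others, Fosl2 occupies 5:32292707-32315186 and Jund 8:71151599-71153265 on the plus strand, and Jun 4:94937271-94940459, Junb 8:85701113-85705359 and Atf3 1:190902493-190950241 on the minus strand. Genes on the opposite strand overlap Fosl1 (Ccdc85b), Jun (Junos) and Junb (Prdx2), and since the use of strand in counting is not given in the sources used here, some of the counts of these 3 members may belong to the partner. Opposite-strand models without counts in the table overlap Fosl2 (Gm72529), Jund (Gm11175) and Atf3 (Gm55866), and 21 of the 27 values of Jund were fractional.

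The libraries held 2528866 to 5723150 estimated counts, so that 3 counts, the limit a count of 0 allows, corresponded to 0.524 to 1.19 CPM (counts scaled to a library total of 1000000). The epithelial keratin Krt5 was at 2000 to 6430 CPM in every library. Of the thyroid markers, Nkx2-1 (6.32 to 21.5 CPM) and Foxe1 (20.3 to 43.0 CPM) were present in all libraries, whereas Tshr, Slc5a5, Iyd and Hhex had at most 28 counts each in all 27 libraries together, Pax8 had 23.2, and the median of Tg was 1.37 CPM. Duox2, which supplies hydrogen peroxide for thyroid hormone synthesis, was at 0 to 93.8 CPM with a median of 5.59 CPM and rose by 6.92 on the log2 scale from day 5 to day 11 at 0 Gy (adjusted p = 3.07e-07). Of 6 immune markers, Cd68, a lysosomal gene that is highest in macrophages, was present in every library (4.14 to 59.0 CPM), while the pan-leukocyte gene Ptprc had 12 counts in all, Csf1r 36.4, Adgre1 17, Cd79a 3 and Cd3e 0. The endothelial gene Emcn had 0.

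Fos, the best known partner of Jun in AP-1, was graded by dose in 7-day-old mTGOs. Its level in the 3 cultures was 183, 216 and 211 CPM at 0 Gy, 105, 97.7 and 119 CPM at 2 Gy, 61.8, 74.8 and 54.6 CPM at 4 Gy, and 40.4, 29.5 and 38.6 CPM at 7 Gy. Every culture followed the same order and no 2 dose groups overlapped. The mean fell from 203 ± 17.5 to 36.2 ± 5.80 CPM (SD, n = 3), a log2 difference of −2.50, which left 17.7% of the 0 Gy level. Because these are whole organoids, fewer cells with Fos mRNA and less of it per cell cannot be told apart.

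In 11-day-old mTGOs, 6 days after the dose, the difference in Fos was smaller. The cultures held 190, 249 and 197 CPM at 0 Gy, 128, 126 and 98.6 CPM at 2 Gy, 120, 116 and 67.1 CPM at 4 Gy, and 96.8, 103 and 56.0 CPM at 7 Gy. All libraries at 0 Gy stood above all irradiated ones, but the 3 irradiated groups overlapped each other, and culture mTG14 had the lowest level at each irradiated dose. The mean at 7 Gy was 85.2 ± 25.5 CPM against 212 ± 32.3 CPM at 0 Gy (SD, n = 3), a log2 difference of −1.34, and it was 39.4% of the control in this age group. Within cultures, Fos at 7 Gy was 22.0, 13.7 and 18.3% of the 0 Gy level of the same culture on day 7 and 50.8, 41.3 and 28.4% on day 11.

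**Figure D1:**
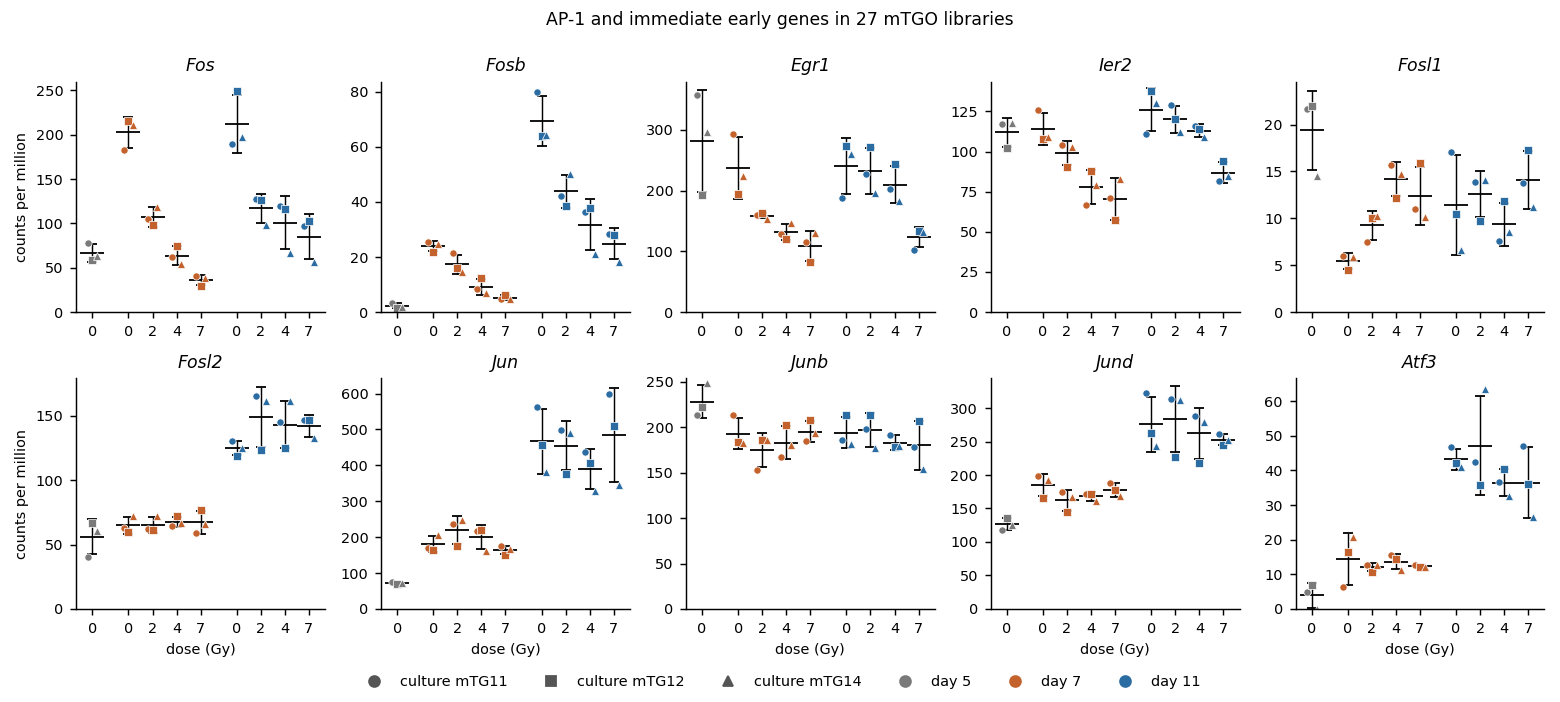
Level of each of the 10 members in CPM (linear axes, scaled per gene) against dose in Gy, with 5-, 7- and 11-day-old organoids drawn apart; points are libraries and bars the mean ± SD of 3. Fos on day 7 steps down from 203 to 36.2 CPM, whereas Junb stays between 153 and 249 CPM in all 27 libraries.

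Fosb, which encodes the closest relative of Fos, stood lower after each dose at both ages, on a level that grew with age. On day 7 it was at 25.3, 21.7 and 24.7 CPM at 0 Gy and at 4.76, 6.17 and 4.79 CPM at 7 Gy, with 17.3 ± 3.58 and 9.21 ± 2.87 CPM (SD, n = 3) at 2 and 4 Gy. On day 11 it was at 79.8, 63.8 and 64.3 CPM at 0 Gy and at 28.3, 28.1 and 18.3 CPM at 7 Gy, with 43.8 ± 5.95 and 31.7 ± 9.29 CPM in between. The 0 and 7 Gy libraries did not overlap at either age. The log2 difference of 7 Gy from 0 Gy was −2.19 on day 7 and −1.50 on day 11, which left 21.9% and 35.5%. As with Fos, the lowest irradiated values on day 11 were those of mTG14 at 4 and 7 Gy.

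The step from 2 to 4 Gy compared libraries that did not choose the members, and here Fos and Fosb were tested too. The fit held all 12 libraries of the day, so its spread estimate also used the 0 and 7 Gy libraries that chose them. On day 7 Fos differed by −0.77 (95% interval −1.06 to −0.48) and Fosb by −0.90 (−1.35 to −0.46) on the log2 scale, and Fos at 4 Gy was 58.8, 76.6 and 45.7% of its 2 Gy level in the same culture. Both genes were lower in 3 of 3 cultures without overlap between the groups, but with edgeR's quasi-likelihood test the adjusted p was 0.457 for Fos and 0.99 for Fosb. The share of all genes without overlap was not counted, in this or any other comparison, so a lack of overlap is a description only. None of the 10 members passed, where 0% of all genes were called by edgeR, although 854 genes had an unadjusted p under 0.05. DESeq2 called 1 gene in all, Fos (−0.78, adjusted p = 0.00571), and without the filter on low counts edgeR also gave Fos (3.96e-06) and Fosb (0.0186). The call for this step therefore depended on the processing, while the direction did not. On day 11 the same step gave −0.20 (−0.71 to 0.31) for Fos and −0.45 (−0.90 to 0.01) for Fosb, with adjusted p of 1 and 0.956. There 0% of all genes were called by edgeR, with 1042 at an unadjusted p under 0.05, and DESeq2 called 0.

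Of the 8 members that the 7 Gy libraries had not chosen, Egr1 and Ier2 fell and Fosl1 rose in 7-day-old mTGOs after 7 Gy, whereas Fosl2, Jun, Junb, Jund and Atf3 did not pass the test. These 3 of 8 compare with 6.95% of all genes called in this comparison (1345 of 19346). The p-values here and below are adjusted over all genes fitted and measure the spread between these 3 cultures.

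Egr1, the zinc finger factor that responds to ERK signalling, was at 293, 194 and 224 CPM at 0 Gy and at 115, 82.0 and 130 CPM at 7 Gy on day 7. The groups did not overlap, and each culture was lower at 7 Gy. The log2 fold change was −1.12 (95% interval −1.49 to −0.76; adjusted p = 0.00147, edgeR), which left 45.9%. On day 11 Egr1 was at 188, 273 and 260 CPM at 0 Gy and at 103, 133 and 132 CPM at 7 Gy, again without overlap. The change was −1.01 (−1.39 to −0.64; adjusted p = 0.0142), so that the level at 7 Gy was 49.6% of the control, and within cultures it was 55.1, 48.6 and 50.7%.

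Ier2 fell by less. On day 7 its level was 126, 108 and 109 CPM at 0 Gy and 70.9, 57.3 and 83.0 CPM at 7 Gy, and on day 11 it was 111, 138 and 130 CPM against 81.8, 94.3 and 84.7 CPM. All 7 Gy libraries lay below all 0 Gy libraries at both ages. The log2 fold change was −0.70 (−0.99 to −0.41; adjusted p = 0.00706) on day 7, and on day 11 it was −0.57 (−0.80 to −0.35; adjusted p = 0.0159). Egr1 and Ier2 were the only 2 of the 8 members called on day 11, where 1.52% of all genes were called (302 of 19901).

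The day 7 calls of Egr1, Ier2 and Fosl1 remained when any of the 6 libraries was left out. On day 11, Egr1 lost its call without the 0 Gy library of mTG12 (adjusted p = 0.0629) or mTG14 (0.0724) or the 7 Gy library of mTG11 (0.0584). Ier2 lost it without the 0 Gy library of mTG12 (0.0708) or mTG14 (0.0745) or the 7 Gy library of mTG11 (0.0715) or mTG14 (0.0609). In all 6 such fits with the culture as a block, which were not planned and were run for this comparison only, both calls held. The adjusted p was then 0.000211 to 0.0027 for Egr1 and 0.00105 to 0.0156 for Ier2. The number of genes called also depended on the block, which raised it from 1345 to 2193 on day 7 and from 302 to 1297 on day 11. Without the block it was 60 to 165 on day 11 when a library was left out.

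Fosl1, a FOS family member whose protein ERK signalling stabilises, moved against Egr1 and Ier2 on day 7. Its level on day 7 was 5.99, 4.51 and 5.92 CPM at 0 Gy, 7.51, 10.0 and 10.2 CPM at 2 Gy, 15.7, 12.2 and 14.7 CPM at 4 Gy, and 11.0, 15.9 and 10.1 CPM at 7 Gy. Every irradiated library stood above every control, and the 4 and 7 Gy groups overlapped. The log2 fold change was 1.16 at 7 Gy (0.68 to 1.64; adjusted p = 0.0065) and 1.31 at 4 Gy (adjusted p = 0.0074). On day 11 the 0 Gy libraries alone spread over 17.1, 10.5 and 6.60 CPM and overlapped those at 7 Gy (13.8, 17.3 and 11.2 CPM), and the difference of 0.27 did not pass (adjusted p = 0.728).

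The other 5 members did not pass at 7 Gy, and their intervals included 0 at both ages. On day 7 the log2 difference was 0.04 (−0.20 to 0.29) for Fosl2, −0.14 (−0.45 to 0.17) for Jun, 0.01 (−0.20 to 0.22) for Junb, −0.07 (−0.27 to 0.14) for Jund and −0.25 (−0.90 to 0.39) for Atf3. The day 7 interval of Atf3 was the widest, and within cultures its level was 204, 73.5 and 57.4% of that at 0 Gy. On day 11 the 5 estimates lay between −0.27 and 0.15. Junb, for which the 27 libraries spread least, kept a group mean of 175 to 228 CPM. Fosl2 on day 11 was at 119 to 130 CPM at 0 Gy and at 133 to 147 CPM at 7 Gy without overlap, and still did not pass.

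**Figure D2:**
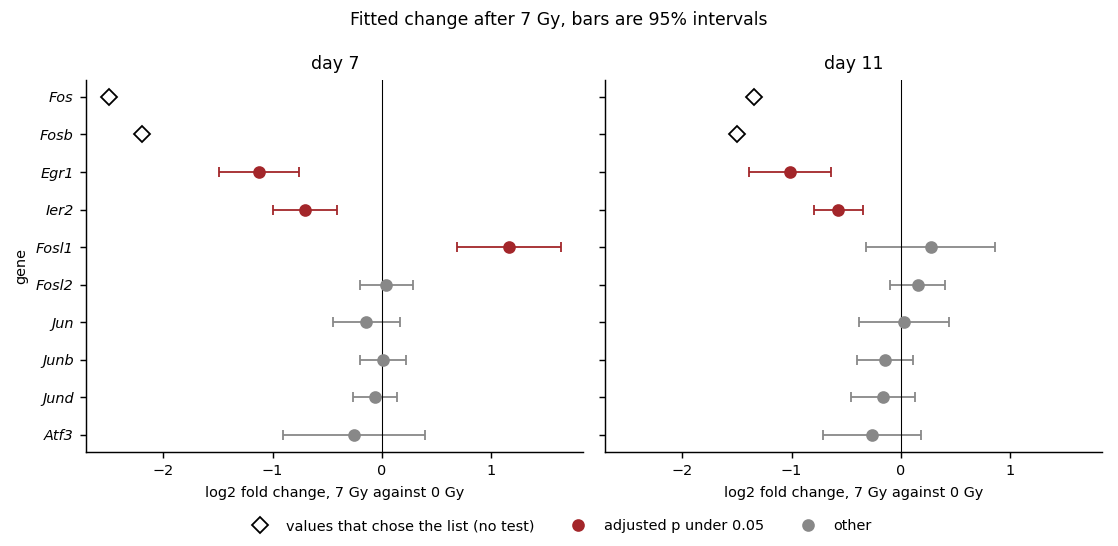
Log2 fold change of 7 Gy against 0 Gy (horizontal axis) for each member in 7- and 11-day-old organoids, with 95% intervals; Fos and Fosb, chosen for this difference, are diamonds without a test. Egr1 (−1.12 and −1.01) and Ier2 (−0.70 and −0.57) lie below 0 at both ages, Fosl1 lies above 0 on day 7 (1.16), and the intervals of the other 5 members include 0 on day 7.

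At the lower doses on day 7, the same 3 members were called at 4 Gy, with Egr1 at −0.89 (adjusted p = 0.0158) and Ier2 at −0.60 (adjusted p = 0.0418) beside Fosl1, where 1.63% of all genes were called. Ier2 at 4 Gy lost its call without any of the 6 libraries (adjusted p = 0.0667 to 0.156) and without TMM factors (0.0633). Egr1 lost it without the 0 Gy library of mTG11 (0.0801) or the 4 Gy library of mTG11 (0.072) or mTG12 (0.0925). With the culture as a block, edgeR called both at 4 Gy (adjusted p = 0.00887 for Ier2 and 0.000563 for Egr1). Leaving out libraries was not repeated with the block at this dose. At 2 Gy none of the 8 passed with edgeR or DESeq2 and 3 had an unadjusted p under 0.05 with each tool, where 0.124% of all genes were called. Egr1 at 2 Gy stood at 160, 163 and 154 CPM, below all 3 controls, and differed by −0.60 (adjusted p = 0.345, or 0.0504 with the block). On day 11 none of the 8 was called at 2 or 4 Gy, and 0 had an unadjusted p under 0.05 with edgeR, where 0% and 0.00502% of all genes were called, although 1159 and 1501 genes had such a p. DESeq2 called 1 gene at 2 Gy and 37 at 4 Gy over all genes on day 11. The log2 differences of Fos were −0.96 and −0.88 at 2 Gy and −1.73 and −1.08 at 4 Gy on day 7 and day 11, and those of Fosb were −0.51 and −0.70 at 2 Gy and −1.41 and −1.14 at 4 Gy. The comparisons with 0 Gy at an age share their control libraries. With the culture as a block, the genes called rose from 24 to 138 at 2 Gy and from 315 to 1009 at 4 Gy on day 7, and on day 11 to 72 and 238.

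Fitted as a line over the 4 doses, Egr1 changed by −0.16 (adjusted p = 0.00106), Ier2 by −0.10 (0.00264) and Fosl1 by 0.15 (0.0238) per Gy on the log2 scale on day 7, where 8.62% of all genes were called. Fos and Fosb, without a test, had slopes of −0.36 and −0.33 per Gy. On day 11 Egr1 changed by −0.14 (0.0122) and Ier2 by −0.08 (0.00848) per Gy, where 2.51% of all genes were called (499, or 1352 with the block), and Fos and Fosb had slopes of −0.18 and −0.21. The slope of Fosl1 on day 7 lost its call without any of the 0 Gy libraries (0.066, 0.066 and 0.0622 for mTG11, mTG12 and mTG14) and without the 7 Gy library of mTG12 (0.0752). That of Egr1 on day 11 lost it without the 7 Gy library of mTG11 (0.0552).

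**Figure D3:**
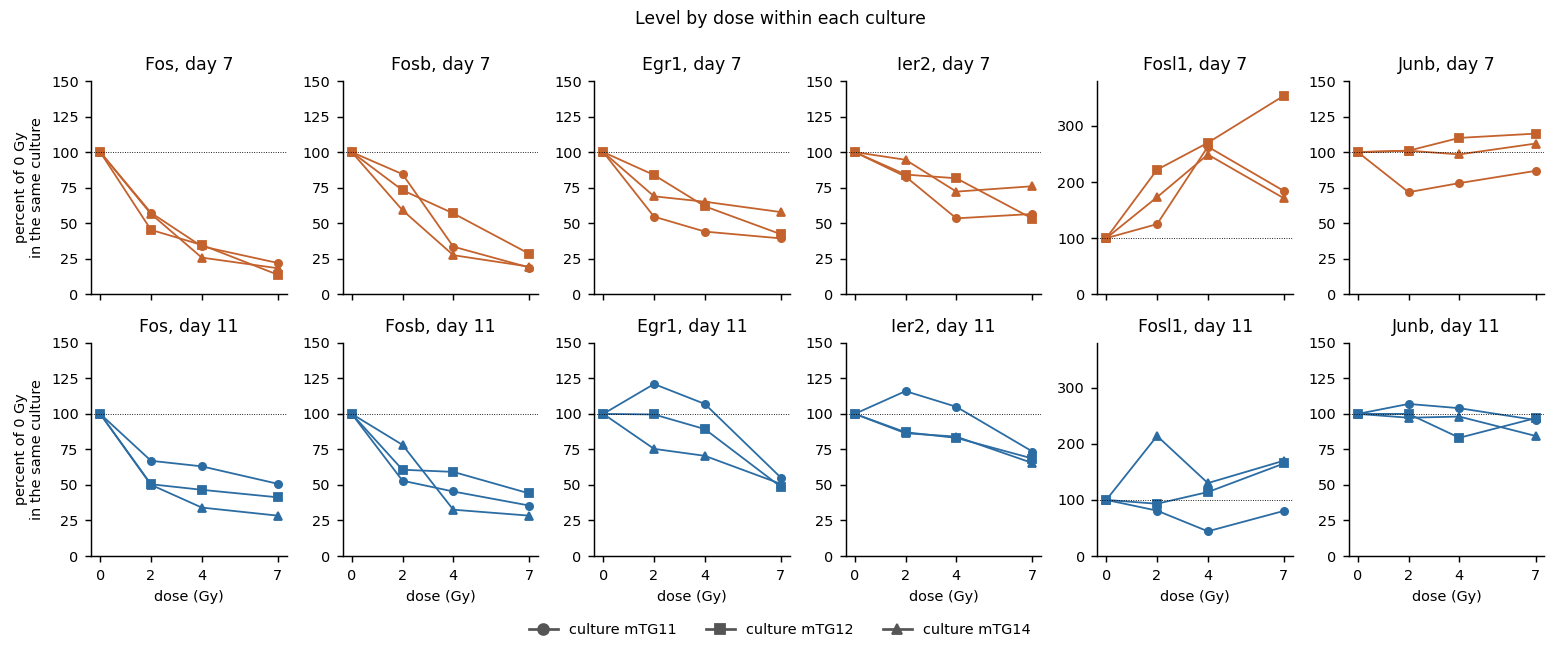
Level of Fos, Fosb, Egr1, Ier2, Fosl1 and Junb as a percentage of the 0 Gy library of the same culture (vertical axis) against dose in Gy, a line per culture, for 7- and 11-day-old organoids. At 7 Gy on day 7 the cultures stand at 13.7 to 22.0% for Fos and 39.3 to 57.8% for Egr1, and above 100% for Fosl1 (171 to 354%).

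Whether the 7 Gy response differed between the ages, which were also 2 and 6 days after the dose, was tested as an interaction. None of the 8 members passed, where 3.02% of all genes were called (663, or 1156 with the culture as a block). With edgeR and with DESeq2 1 member had an unadjusted p under 0.05, which was Fosl1 (−0.86, adjusted p = 0.297). The interaction estimates of Fos (1.19) and Fosb (0.73) are positive because the difference was smaller on day 11, and were not tested.

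Without irradiation, Jun, Jund, Fosl2 and Atf3 rose as the organoids aged, whereas Junb and Egr1 did not pass the test. From day 5 to day 11 Jun rose by 2.83 (adjusted p = 6.52e-08), Jund by 1.27 (2.35e-06), Fosl2 by 1.30 (2.01e-05) and Atf3 by 3.72 (0.000181) on the log2 scale, 41.3% of all genes being called. Jun was at 72.2, 180 and 467 CPM in the means of days 5, 7 and 11, Jund at 127, 185 and 276 CPM, Fosl2 at 56.0, 64.9 and 125 CPM and Atf3 at 3.89, 14.5 and 43.2 CPM. Egr1, at 357, 192 and 297 CPM on day 5, and Junb, at 214, 222 and 249 CPM, both differed by −0.09 and did not pass. TMM factors raised the log2 fold changes against day 5 by a median of 0.14 to 0.15 over the 10 members, relative to plain CPM. Over the same days the summed level of 6 simple epithelial markers went from 943 to 1180 CPM on day 5 to 2920 to 4040 CPM on day 11 (5 rose), that of 10 basal and stratified markers from 23700 to 29500 CPM to 9670 to 11300 CPM (8 fell and 2 rose), and that of 7 fibroblast markers from 46.9 to 187 CPM to 7.62 to 46.7 CPM (5 fell). All 16 proliferation genes fell, and Cd68 rose by 2.99 (adjusted p = 1.44e-05). The mitochondrial share of counts went from 3.81 to 5.42% to 8.56 to 10.4%. The part of these shifts in the changes of the members with age was not tested. Ier2 was called at 0.31 (adjusted p = 0.0356), and this call was lost with DESeq2 (0.0667), without TMM factors (0.258), in a fit of all 27 libraries (0.0614) and without the day 5 library of mTG12 (0.14) or mTG14 (0.0593) or the day 11 library of mTG12 (0.111) or mTG14 (0.117).

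In the shorter steps, Jun (1.47, adjusted p = 4.2e-05), Jund (0.70, 0.000911) and Atf3 (2.16, 0.0253) rose from day 5 to day 7, where 21.6% of all genes were called. From day 7 to day 11 Jun (1.37, 2.28e-05), Jund (0.57, 0.00221), Fosl2 (0.94, 0.000575) and Atf3 (1.56, 0.02) rose, where 21.2% were called. Atf3 had 0 counts in the day 5 library of mTG14, against 4.83 and 6.84 CPM in the other cultures. Its call from day 5 to day 7 was lost with DESeq2 (0.155) and without the day 5 library of mTG14 (0.054) or the day 7 library of mTG12 (0.0601) or mTG14 (0.096). Its call from day 7 to day 11 was lost with DESeq2 (0.316) and without the day 7 (0.054) or day 11 (0.0566) library of mTG11.

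Fosl1 took the opposite course to Jun at first, from 21.7, 22.0 and 14.5 CPM on day 5 to 5.99, 4.51 and 5.92 CPM on day 7. It fell by 1.66 on the log2 scale (adjusted p = 0.00294) and then rose by 1.06 to day 11 (0.0354), although the second call held in only 1 of the 6 fits without a library (that without the day 11 library of mTG14) and reached adjusted p of 0.0539 to 0.169 in the other 5. Day 11 differed from day 5 by −0.60 (0.11), with the culture as a block by −0.64 (0.0292), and without the day 11 library of mTG11 by −1.02 (0.0105). The irradiated 7-day-old groups, at mean levels of 9.25, 14.2 and 12.4 CPM, lay between the 0 Gy means of day 7 (5.47 CPM) and day 5 (19.4 CPM).

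Fos and Fosb were described over age but not tested at 0 Gy, since those libraries chose them. Fos was at 77.6, 58.9 and 63.3 CPM on day 5, below every 0 Gy library of days 7 and 11, and its day 7 and day 11 means differed by 0.05 on the log2 scale, less than the spread between cultures. Fosb was at 3.45, 1.52 and 2.00 CPM on day 5 and did not overlap between any 2 of the 3 ages at 0 Gy. Its mean difference was 3.49 from day 5 to day 7 and 1.53 from day 7 to day 11. After 7 Gy on day 7, Fos (36.2 CPM) was below its day 5 level and Fosb (5.24 CPM) above it.

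**Figure D4:**
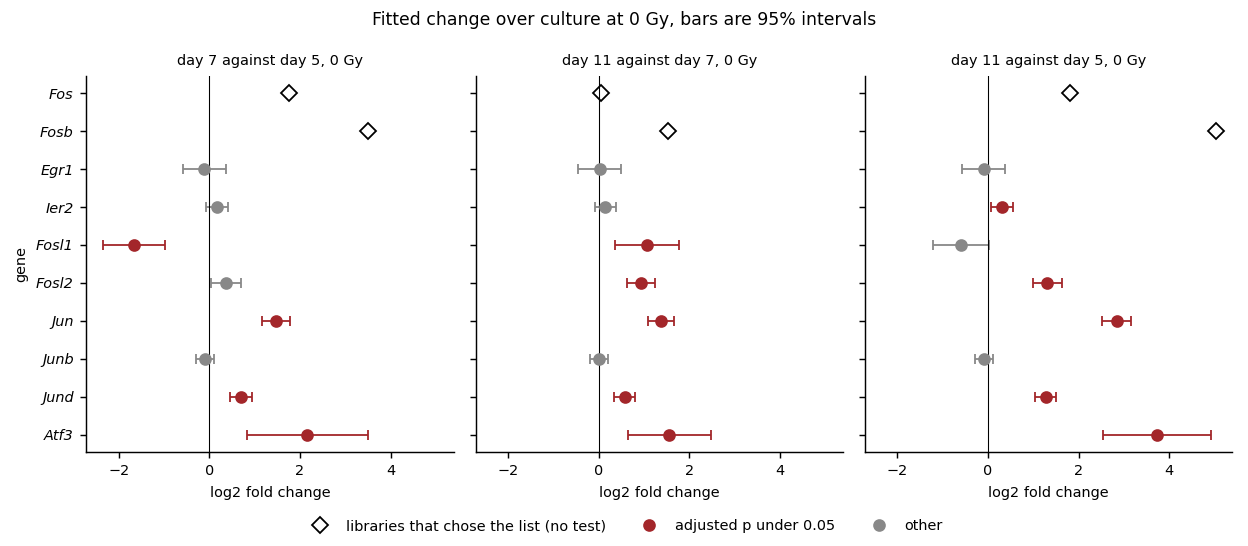
Log2 fold change between ages at 0 Gy (horizontal axis) for each member, for day 7 against 5, day 11 against 7 and day 11 against 5, with 95% intervals where tested. From day 5 to day 11 Jun (2.83) and Atf3 (3.72) lie far above 0 and Junb and Egr1 (both −0.09) near it.

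In irradiated organoids the same age steps were also steps in time since the dose. They could be tested for all 10 members at 2 and 4 Gy. At 2 Gy Fosb rose by 1.35 from day 7 to day 11 (adjusted p = 8.23e-05) and Fos differed by 0.13 (0.738), with 17.2% of all genes called. At 4 Gy Fosb rose by 1.82 (7.15e-06), Fos by 0.72 (0.02), Egr1 by 0.71 (0.0079) and Ier2 by 0.58 (0.00199), with 17.1% of all genes called. The call of Fos at 4 Gy was lost without the day 7 library of mTG11 (0.0573) or mTG14 (0.0751) or the day 11 library of mTG11 (0.1) or mTG12 (0.078). Egr1 at 2 Gy (0.55, 0.04) lost its call in a fit of all 27 libraries (0.0687) and without any library but the day 11 library of mTG14 (0.0615 to 0.155). In a fit of only the 12 libraries at 2 and 4 Gy, chosen after the data were seen, Fosb (0.00116 and 0.000265) and Fos at 4 Gy (0.0228) were called again. Fosl2, Jun, Jund and Atf3 rose at 2, 4 and 7 Gy as they did at 0 Gy, Jun for example by 1.05, 1.02 and 1.57, and Fosl1 and Junb passed at none of these 3 doses. At 7 Gy, where 12.3% of all genes were called, Egr1 (0.16) and Ier2 (0.30) did not pass, although Ier2 did without the day 7 library of mTG14 (0.0243).

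Set against Junb in the same library, the mean level of Fos on day 7 was 106% of that of Junb at 0 Gy, 61.8% at 2 Gy, 34.8% at 4 Gy and 18.7% at 7 Gy. On day 11 it was 109, 59.6, 55.1 and 46.8%. The ratio compares counts at the 3′ end of each mRNA within a library, so that it does not depend on the scaling between libraries. Fosb was 3.39% of Fos on day 5, 11.8 to 16.3% in the day 7 groups and 29.7 to 38.3% in the day 11 groups. The share of Fosb thus followed the age of the organoids. At 0, 2, 4 and 7 Gy its mean was 11.8, 16.3, 14.2 and 15.0% on day 7. On day 11 it was 33.4, 38.3, 31.3 and 29.7%, and a difference with dose in this share was not tested.

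Over the 27 libraries, which share days, doses and cultures, Fos correlated with Fosb (Pearson r = 0.769 on log2 CPM + 1) and with Ier2 (0.796), Egr1 with Ier2 (0.874), and Jun with Jund (0.93) and Atf3 (0.911). Fos and Fosb were chosen because their counts were lower after irradiation in some of these libraries. Their r over all libraries, and the genes most like Fos named below, partly follow from that choice and are a description only. After the group means were removed, r was 0.573 for Fos and Fosb, 0.712 for Egr1 and Ier2 and 0.342 for Jun and Atf3. Fos and Fosl1 had r = −0.517 over all libraries and 0.035 within groups. Among the 9530 genes with a mean of at least 10 CPM, the 6 most like Fos were Vldlr (0.836), Rac3 (0.801), Ier2 (0.796), Echs1 (0.793), Cyp2s1 (0.776) and Art4 (0.773). The 6 most like Jun were Ppp1r15a (0.964), Naxe, Muc4, Gfpt1, Gm2999 and Adm (0.951), and those most like Atf3 included Irak2 (0.918), Nupr1 (0.912) and Jun itself. The 6 most like Fosl1 were Nop58 (0.786), Ccdc86, Rbm28, Rrp9, Kpna1 and Iffo2 (0.757), of which Nop58 and Rrp9 act in ribosomal RNA processing. By Spearman's rank correlation, 4 of the 6 genes remained for Fos, 3 for Fosl1, 2 for Atf3 and 1 for Jun.

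The rest of the pathway was read from lists of genes chosen with earlier results of these data known. At 7 Gy, 3.2% of all genes were called higher and 3.75% lower on day 7, and 1.06% and 0.462% on day 11, and the counts below are to be read beside these shares. Of 11 other AP-1 dimer partners (of the BATF, JDP2, ATF2 and MAF families), Mafk rose at 7 Gy on day 7 (0.72, adjusted p = 0.0276), a call that was lost without the 0 Gy library of mTG12 and with DESeq2, which called none of the 11. None passed on day 11, where 2 had an unadjusted p under 0.05 with edgeR and DESeq2 also called none. Of 29 other immediate early genes, 5 rose and 2 fell on day 7, with a median of 0.04 beside 0.01 for all genes. Gadd45b (1.33), a stress-response gene, and Btg2 (1.08), a growth inhibitor that p53 induces, were among those that rose, and Cebpb (−0.68) and Zfp36 (−0.54), whose product destabilises short-lived mRNAs, were those that fell. On day 11 Klf10 (−0.93), Cebpd (−0.85) and Zfp36l1 (−0.56) fell and none rose. With the culture as a block 7 rose and 4 fell on day 7, and 1 rose and 5 fell on day 11. On day 7 the number that rose was 3 without the 0 Gy library of mTG11 and none fell without that of mTG14, and on day 11 none fell without the 0 Gy library of mTG12.

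Upstream of AP-1, 2 of 17 kinases and factors fell on day 7, Mapk14 (−0.51), which encodes the p38α kinase, and Mapk9 (−0.43), which encodes JNK2, and DESeq2 called 1 of the 17. On day 11 none passed with edgeR or DESeq2 and 1 had an unadjusted p under 0.05 with each. When any library was left out, 0 to 1 of the 17 fell on day 7, with 0 without the 7 Gy library of mTG14. Of 16 feedback genes of MAP kinase signalling, Dusp1, the phosphatase that inactivates p38 and JNK and an immediate early gene itself, fell by 1.09 (adjusted p = 0.00297) and Spred2 by 0.55, and Phlda1 rose by 0.39. Without any of the 6 libraries 1 of the 16 fell and none rose, and with the culture as a block 3 rose and 2 fell. Dusp1 on day 11 was at −0.40 (0.362), and none of the 16 passed there with edgeR or DESeq2, 5 and 3 of them having an unadjusted p under 0.05. Of 10 genes of the EGF family and its receptors, the ligand genes Areg (1.00, 6.31e-05) and Ereg (0.83, 0.0149) rose on day 7. None passed on day 11, with edgeR or DESeq2, and 3 had an unadjusted p under 0.05 with each. Areg stood at 0.36 there (0.125), and with the block 4 rose and 1 fell on day 7 and 1 rose on day 11.

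Of 18 genes known as AP-1 targets, 8 rose and 2 fell at 7 Gy on day 7, and their median was 0.66. The proteases Plau (1.25) and Mmp13 (1.16) and the polyamine enzyme Odc1 (1.07) were among those that rose, and Lor (−2.51), a protein of the cornified envelope, and Vegfa (−0.76) were the 2 that fell. With the culture as a block 13 rose and 2 fell. When any library was left out, 1 fell and 5 to 9 rose, the 5 without the 0 Gy library of mTG11. On day 11 Vegfa (−0.95, adjusted p = 0.0142) was the only target called by edgeR without the block, DESeq2 called 1 higher and 2 lower, and with the block 8 rose and 2 fell. From day 5 to day 11 without irradiation, where 21.3% of all genes were called higher and 20.1% lower, 4 of the 18 targets rose and 8 fell, with Sprr1b (−8.50), Lor (−6.63) and Krt16 (−5.36), genes of stratified epithelium, among the latter.

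**Figure D5:**
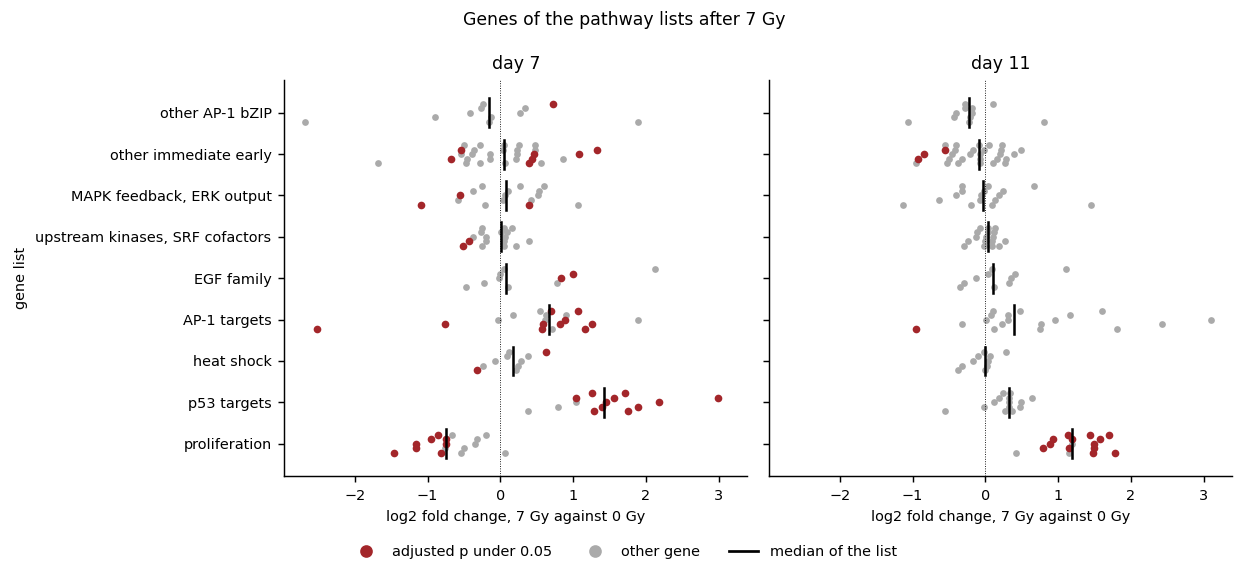
Log2 fold change of 7 Gy against 0 Gy (horizontal axis) of each gene in the pathway lists, a row per list, for 7- and 11-day-old organoids, with called genes marked. The p53 targets lie to the right on day 7 (median 1.42), and the proliferation genes lie to the left on day 7 (median −0.75) and to the right on day 11 (median 1.19).

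Other features of the organoids moved with dose and age beside the members. Of 14 p53 targets, 11 rose on day 7 (Eda2r 2.99, Fas 2.17, Ccng1 1.76), and on day 11 none passed with edgeR or DESeq2, 7 having an unadjusted p under 0.05 with each. Of 16 proliferation genes, 8 fell on day 7 (Mki67 −1.47) and 13 rose on day 11 (Mki67 1.58), and with the block 10 fell on day 7 and 16 rose on day 11, while 3 rose without the 0 Gy library of mTG12. Their summed level was 736 to 907 CPM at 0 Gy and 433 to 483 CPM at 7 Gy on day 7 and 204 to 227 and 476 to 508 CPM on day 11. Fos, Fosb, Egr1 and Ier2 were lower at 7 Gy at both ages, while the proliferation genes stood on opposite sides, and their part in the results on the members was not tested.

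Heat shock genes, which rise when tissue handling stresses cells, had 1 of 10 higher (Hspb1 0.63) and 1 lower (Bag3 −0.32) on day 7, and 0 of 10 passed on day 11 with edgeR or DESeq2, with 2 and 3 at an unadjusted p under 0.05. With the block 3 were higher and 1 lower on day 7. When a library was left out, 0 to 1 were higher and 0 were lower on day 7. Their summed level on day 7 was 1740 to 1820 CPM at 0 Gy, below every irradiated library. It was 1990 to 2560 CPM at 2 Gy, 2110 to 2490 CPM at 4 Gy and 1920 to 2420 CPM at 7 Gy. On day 11 it was 1990 to 2150 CPM at 0 Gy and 1940 to 2180 CPM at 7 Gy. The mitochondrial share of counts was 6.21 to 8.16% at 0 Gy and 6.86 to 8.77% at 7 Gy on day 7, and 8.56 to 10.4% and 7.22 to 8.65% on day 11. Genes of 7 fibroblast markers summed to 29.3 to 161 CPM at 0 Gy and 64.9 to 153 CPM at 7 Gy on day 7, and to 7.62 to 46.7 and 25.0 to 86.2 CPM on day 11, and 0 were called at either age with edgeR, 0 having an unadjusted p under 0.05 and 1 and 4 being higher with the block. Basal and stratified epithelial markers summed to 20500 to 23200 CPM at 0 Gy and 20400 to 27700 CPM at 7 Gy on day 7, and to 9670 to 11300 and 10800 to 16300 CPM on day 11. Of these 10, Krt6a rose (0.37) and Trp63 (−0.64) and Lor (−2.51) fell on day 7, and on day 11 none passed with edgeR, 5 having an unadjusted p under 0.05, 1 was called by DESeq2 and 4 rose with the block. The part of these values in the results on the members was not tested.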

How the data were processed

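Counts per gene of 27 libraries of irradiated mouse thyroid gland organoids were analysed. The authors deposited these estimated counts, made from single reads of the 3′ ends of polyadenylated RNA, and 56.3% of the values above 0 were whole numbers (tolerance 0.001). The submitters' processing notes name GRCm39, STAR and edgeR, and versions, annotation and the use of strand are not given in the sources used here. The test had been planned for whole counts, so the values were rounded. Genes with at least 10 counts over the libraries of a fit were fitted by edgeR's quasi-likelihood test (4.0.16, R 4.3.3) with TMM factors, separately for 12 libraries of day 7, 12 of day 11 and 9 at 0 Gy, and in 24 for comparisons between the days. P-values were adjusted by the Benjamini-Hochberg method over all genes of the fit, at 0.05, and the code was tested on simulated data. CPM are counts scaled to 1000000 per library without TMM factors, whereas fold changes include them. The limit of 3 counts covers counting error only.

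The 10 members, the gene lists and the tests were chosen with earlier results of these data known. Named genes were the members, up to 4 called genes per list with the largest change in a comparison, and the 6 genes most correlated with Fos, Fosl1, Atf3 and Jun. Genes named beside these were chosen after their values were seen. The labels number the mice, whereas the columns of the table name cultures mTG11, mTG12 and mTG14 that could not be matched to them. Libraries were therefore placed by group, and the culture in the column name served as the block. It paired the libraries: deviations from the group means correlated at 0.184 to 0.426 between libraries of the same culture on day 7 and at 0.263 to 0.439 on day 11 (18 of 18 pairs over 0.1 on each), and at most at 0.0649 between different cultures. No 2 replicates were alike within sampling noise. DESeq2 (1.42.0), no filter on low counts, filterByExpr, unrounded counts, no TMM factors, the culture as a block, a fit of all 27 libraries and leaving out each library were the alternatives. Leaving out a library with the block was not planned and was done only for 7 Gy against 0 Gy on day 11. Promoters were read from a RefSeq table. Protein sequences were not used here.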

Additional observations from a re-analysis of the deposited data

How the results depend on the processing

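Of 2116 tested values of members under the alternatives, 2056 kept their side of the threshold, 51 lost and 9 gained a call, and 0 changed direction as a call. The sign changed in 95 values that were called neither in the reported fit nor under the alternative. The 2116 include values not called in the reported fit, which had no call to lose. The share kept therefore does not measure how firm the calls were. Of the 6 fits without a library, Ier2 lost its call in 6 at 4 Gy on day 7 and in 4 at 7 Gy on day 11. Egr1 lost its call in 3 at each of these, and the 3 calls at 7 Gy on day 7 were lost in 0. Of 394 untested values of Fos and Fosb, 2 changed sign: the day 11 against day 7 difference of Fos at 0 Gy (0.05) was −0.041 without the day 7 library of mTG11 and −0.062 without the day 11 library of mTG12, and 0.136 at most.

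The number of genes called moved more than the members. For 7 Gy on day 7 (1345 genes), it was 2211 without the filter and 2193 with the replicate block. For 7 Gy on day 11 (302), it was 1205 without the filter, 1297 with the block and 562 in a fit of all 27 libraries. For the interaction (663), it was 1234 without the filter and 1156 with the block, and for the slope on day 11 (499), 802 with DESeq2 and 1352 with the block. When a library was left out, the genes called ranged from 705 to 1000 for 7 Gy on day 7, from 60 to 863 for 7 Gy on day 11 (676 to 863 with the block), from 443 to 606 for the interaction, from 6455 to 6869 for day 11 against day 5 (7621), from 1140 to 1919 for the slope on day 7 (1667) and from 287 to 626 for that on day 11. Members called then ranged from 3 to 3, 0 to 2, 0 to 0, 4 to 6, 2 to 3 and 1 to 2. The cause of these shifts was not tested. Pairing by culture changed the call of Fosl1 from day 5 to day 11 and no other call of a member. Without the filter, Egr1 at 2 Gy on day 7 was called (−0.62, adjusted p = 1.75e-05). Depth limits the members with few counts, Fosl1 (1265 over all libraries) and, on day 5, Atf3 (0 to 6.84 CPM) and Fosb (1.52 to 3.45 CPM).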
